A study of Mus musculus with 8 samples.

Results

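The reproductive homeobox genes of the mouse are described here in sorted pachytene spermatocytes with and without Setdb1. The members are the protein-coding genes on a standard chromosome whose name starts with Rhox or Obox and a digit, together with Esx1, Tgif2lx1 and Tgif2lx2. They number 37 of the 22603 genes in the table (19479 of them protein-coding), and no expression value entered the choice. Of the 37, 33 lie on the X chromosome: 30 Rhox genes, Esx1 and the Tgif2lx pair. The Rhox genes comprised 21 of the α subcluster (Rhox1, 8 copies of Rhox2, 6 of Rhox3 and 6 of Rhox4), 6 of the β subcluster (Rhox5 to Rhox9), 2 of the γ subcluster (Rhox10 and Rhox11) and Rhox13. The remaining 4 members, Obox2, Obox3, Obox6 and Obox8, lie on chromosome 7.

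The study asked what the loss of SETDB1, an enzyme that trimethylates lysine 9 of histone H3 (H3K9me3), does to the silencing of the X and Y in male meiosis. RNA was measured in 2 wildtype (WT) and 2 Setdb1 conditional knockout (cKO) samples, each from 500 cells sorted as pachytene spermatocytes from testes of male C57BL/6 mice (C57BL/6J in the methods). The wildtype mice were at postnatal day 15 and the cKO mice at that age or later, so genotype and age cannot be told apart. The cKO mice carried 1 floxed and 1 null Setdb1 allele and a Cre transgene under the Ngn3 promoter, which drives Cre in spermatogonia and their descendants and also in gut and pancreas. By the paper's cross the cKO mice also carried an EYFP reporter allele of Cre activity. The wildtype mice are not said to carry Cre, the reporter or a floxed allele. The labels do not say that the samples of a genotype came from separate animals, so the p-values take their error from differences between these samples alone, and these may be technical. The ChIP-seq samples of the series have no processed values and were not analysed here.

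Homeobox genes encode transcription factors that bind DNA through a conserved homeodomain. The Rhox genes form a cluster on the mouse X that grew by repeated duplication, above all of Rhox2, Rhox3 and Rhox4, and they are expressed mainly in testis, epididymis, ovary and placenta. Esx1 is an X-linked homeobox gene of placenta and male germ cells, the Tgif2lx genes are testis-expressed retrocopies of a TALE-class homeobox gene, and the Obox genes are known from oocytes and early embryos. In pachytene cells the unsynapsed X is normally silenced, a process called meiotic sex chromosome inactivation.

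The duplicates are so alike that a short read often cannot be placed. To show this, the third coding exon of 4 Rhox2 copies is printed, with bases that differ from Rhox2a in capitals (GRCm38.p6, RefSeq and GENCODE coordinates on chromosome X). It is identical in Rhox2a, Rhox2b, Rhox2c and Rhox2e, and Rhox2h has the same single difference as Rhox2f.
Rhox2a coding exon 3, chrX:37247176-37247221, plus strand: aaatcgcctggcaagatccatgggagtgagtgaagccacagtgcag
Rhox2f coding exon 3, chrX:37573635-37573680, plus strand: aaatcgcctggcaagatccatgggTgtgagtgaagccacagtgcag
Rhox2d coding exon 3, chrX:37495647-37495692, plus strand: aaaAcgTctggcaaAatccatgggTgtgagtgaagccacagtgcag
Rhox2g coding exon 3, chrX:37641157-37641202, minus strand: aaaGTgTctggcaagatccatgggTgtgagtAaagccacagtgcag

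Over the whole coding sequence of 573 bases, the other Rhox2 copies were 94.4% to 99.7% identical to Rhox2a. The share of each gene's 31-base words that occur in no other gene of the transcript annotation was therefore computed, 31 bases being the word length that kallisto uses by default. It was 100% for Esx1, Rhox5, Rhox10 and Rhox13, 99.9% for Rhox1, 98.7% for Rhox11, 92% for Rhox8 and 90.9% for Rhox9. The share leaves out the second row, with identical values, that Rhox5, Rhox6, Rhox7a and Rhox9 have on an alternative scaffold. For these genes it therefore overstates how far reads could be placed on the X row. It was at most 36.6% for any Rhox2 copy, 22.1% for any Rhox3 copy and 22.4% for any Rhox4 copy, and 3.1% for each Tgif2lx gene. The level of a single Rhox2, Rhox3, Rhox4, Rhox7 or Tgif2lx copy is thus uncertain. For Rhox2 and Tgif2lx the family sum rests on fewer assumptions. Some words also occur in genes that are not among the family's members, and these genes can include pseudogenes of the same name. They made up at most 10.5% of any Rhox2 copy and 0% of the Tgif2lx genes. They made up 65.8% to 81.2% of the Rhox3 copies and 68.5% to 87.9% of the Rhox4 copies, so those sums are uncertain too.

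The promoter sequences of copies that rose and of copies that stayed low are set side by side, each 250 bases before to 50 after the RefSeq start, with CG dinucleotides in capitals (GRCm38.p6). Rhox2a, Rhox2g, Rhox3a2, Rhox3h and Rhox13 rose in the cKO samples, as the values further on show, and Rhox4a2 stayed low.
Rhox2a promoter, chrX:37244742-37245041, plus strand: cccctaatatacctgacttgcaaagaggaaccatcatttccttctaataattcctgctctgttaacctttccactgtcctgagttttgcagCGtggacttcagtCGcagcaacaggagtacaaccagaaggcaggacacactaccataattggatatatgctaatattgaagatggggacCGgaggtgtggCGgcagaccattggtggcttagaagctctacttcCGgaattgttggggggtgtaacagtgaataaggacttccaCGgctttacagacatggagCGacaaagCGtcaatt
Rhox2g promoter, chrX:37643421-37643720, minus strand: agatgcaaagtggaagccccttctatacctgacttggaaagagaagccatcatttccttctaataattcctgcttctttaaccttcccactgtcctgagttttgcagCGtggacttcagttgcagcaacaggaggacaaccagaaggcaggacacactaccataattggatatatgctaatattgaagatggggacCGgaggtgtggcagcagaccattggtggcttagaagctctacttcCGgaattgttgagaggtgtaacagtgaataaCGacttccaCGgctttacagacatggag
Rhox3a2 promoter, chrX:37380133-37380432, plus strand: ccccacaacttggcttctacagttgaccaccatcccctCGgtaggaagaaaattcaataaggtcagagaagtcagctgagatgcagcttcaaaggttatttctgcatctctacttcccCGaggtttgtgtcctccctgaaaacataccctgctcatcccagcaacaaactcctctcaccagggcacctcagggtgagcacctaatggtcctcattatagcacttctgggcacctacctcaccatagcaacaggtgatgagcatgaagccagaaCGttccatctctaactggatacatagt
Rhox3h promoter, chrX:37668715-37669014, minus strand: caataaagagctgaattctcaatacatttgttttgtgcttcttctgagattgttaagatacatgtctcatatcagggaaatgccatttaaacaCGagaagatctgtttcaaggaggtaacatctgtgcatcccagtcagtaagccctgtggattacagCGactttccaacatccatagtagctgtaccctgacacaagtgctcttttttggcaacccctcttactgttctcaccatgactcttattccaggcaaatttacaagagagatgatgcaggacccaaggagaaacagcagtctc
Rhox4a2 promoter, chrX:37390610-37390909, plus strand: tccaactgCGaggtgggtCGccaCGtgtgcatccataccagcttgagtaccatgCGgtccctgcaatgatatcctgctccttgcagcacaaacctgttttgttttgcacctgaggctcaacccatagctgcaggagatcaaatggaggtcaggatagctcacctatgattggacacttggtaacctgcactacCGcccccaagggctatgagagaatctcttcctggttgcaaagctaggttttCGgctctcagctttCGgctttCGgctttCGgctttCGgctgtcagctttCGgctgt
Rhox13 promoter, chrX:38120590-38120889, plus strand: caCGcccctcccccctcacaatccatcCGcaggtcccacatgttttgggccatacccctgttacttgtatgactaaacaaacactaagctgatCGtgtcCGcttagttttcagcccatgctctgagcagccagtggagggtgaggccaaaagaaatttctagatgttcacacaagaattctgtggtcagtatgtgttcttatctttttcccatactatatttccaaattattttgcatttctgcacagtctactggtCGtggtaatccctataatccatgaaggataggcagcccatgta

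RefSeq gave a promoter for 26 of the 37 members. The start it used for Rhox2a lay 16 bases from the gene start in the GENCODE annotation. For Rhox3a2 the distance was 355 bases, for Rhox4a2 12 bases and for Rhox13 379 bases, and for Rhox2g and Rhox3h the starts coincided. For Rhox5 it lay 50234 bases upstream of the gene start, and that promoter is not shown. It lay downstream by 11283 bases for Rhox3c, 4956 bases for Rhox3e and 1757 bases for Esx1. All these windows, that of Rhox5 included, enter the counts of CG and motifs further on.

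Before the results, the state of the samples bears on how firmly they can be read. The columns are TPM, a transcript level corrected for length, and the read depth behind them is unknown. Across all genes tested the WT samples correlated at 0.974 and the cKO samples at 0.923, and cKO replicate 1 stood further from the WT mean (0.887) than cKO replicate 2 did (0.954). Markers of pachytene cells were abundant, with 9 genes summing to 6152 and 7322 TPM in WT and to 4370 and 5808 TPM in the cKO. In the paper's test sorts of wildtype testes most cells, though not all, were pachytene, and it found spermatids absent from cKO testes. Markers of other cells were present too: 13 Sertoli genes summed to 1949, 1616, 1928 and 1763 TPM in WT replicates 1 and 2 and cKO replicates 1 and 2, with Clu at up to 1169 TPM. The sum of 12 spermatid genes was 108 and 162 TPM in WT, and in the cKO it was 1180 TPM in replicate 1 and 216 TPM in replicate 2, while that of 7 Leydig genes was 100 and 265 TPM, then 822 and 137 TPM. Of these lists, 1 of the 9 pachytene genes fell (Sycp2) and 3 of the 12 spermatid genes rose. Over all 19462 genes tested 678 rose and 217 fell by the same rule. At an unadjusted limma p under 0.05, 4 pachytene genes were lower and 7 spermatid genes higher. Of the 7 Leydig, 12 spermatogonial, 4 macrophage and 4 peritubular or endothelial genes 0 passed. Among these, 1 Leydig and 1 spermatogonial gene were higher with an unadjusted p under 0.05, and 1 spermatogonial gene lower. Setdb1 itself was at 56.9 and 59.3 TPM in WT. It was lower in both cKO samples (28.7 and 37.2 TPM) but missed the threshold (log2 change -0.81, limma adjusted p = 0.269). A gene-level value also takes in exons that Cre leaves in place, so it checks the labels only in part.

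Most of the X-linked members were low in WT pachytene cells, and 23 of the 33 were higher in both cKO samples than in both WT samples. Of the 37 members, 17 rose in the cKO and none fell (limma on log2(TPM + 1), Benjamini-Hochberg adjusted p under 0.2 over 19462 genes). At an unadjusted p under 0.05 the counts were 20 and 0. All 37 passed the filter on low values, a WT or cKO mean of more than 0.1 TPM. Rhox9, one of the 17, passed it only through the cKO, where its mean was 6.07 TPM against 0.00713 TPM in WT. Over all genes tested 3.48% rose by the same rule, and over all X-linked genes 27.6% did, against 45.9% of the members and 51.5% of the 33 X-linked members. The median log2 fold change was 1.70 over the members and 1.97 over the X-linked members, against 0.08 over all genes and 1.00 over the other X-linked genes. These are counts over genes that share sequence, and whether the members differ from the rest of the X was not tested.

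A plain comparison of the samples gave a different picture. Both cKO samples lay above both WT samples for 23 members, all X-linked (69.7% of these), and both lay below for none. Over all genes this held for 26.3% and over X-linked genes for 72.5%, so the X-linked members moved in this direction about as often as any gene of the X. The size of the change set them further out: 12 of the 33 lay above 2.90, the log2 fold change that 10% of X-linked genes exceeded. Of these 12, Esx1 and Tgif2lx2 lie outside the Rhox cluster and the others are Rhox2 and Rhox3 copies.

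The counts rest on few samples. Without WT replicate 1 or without WT replicate 2 no gene of the genome passed the threshold, and 15 and 17 members then had an unadjusted p under 0.05. Without cKO replicate 1, 13 members passed (lost were Rhox10, Rhox2c, Rhox2d and Rhox3c), and without cKO replicate 2, 24 did. A fit that leaves out 1 sample takes the spread of the lone sample's genotype from the other pair.

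**Figure D1:**
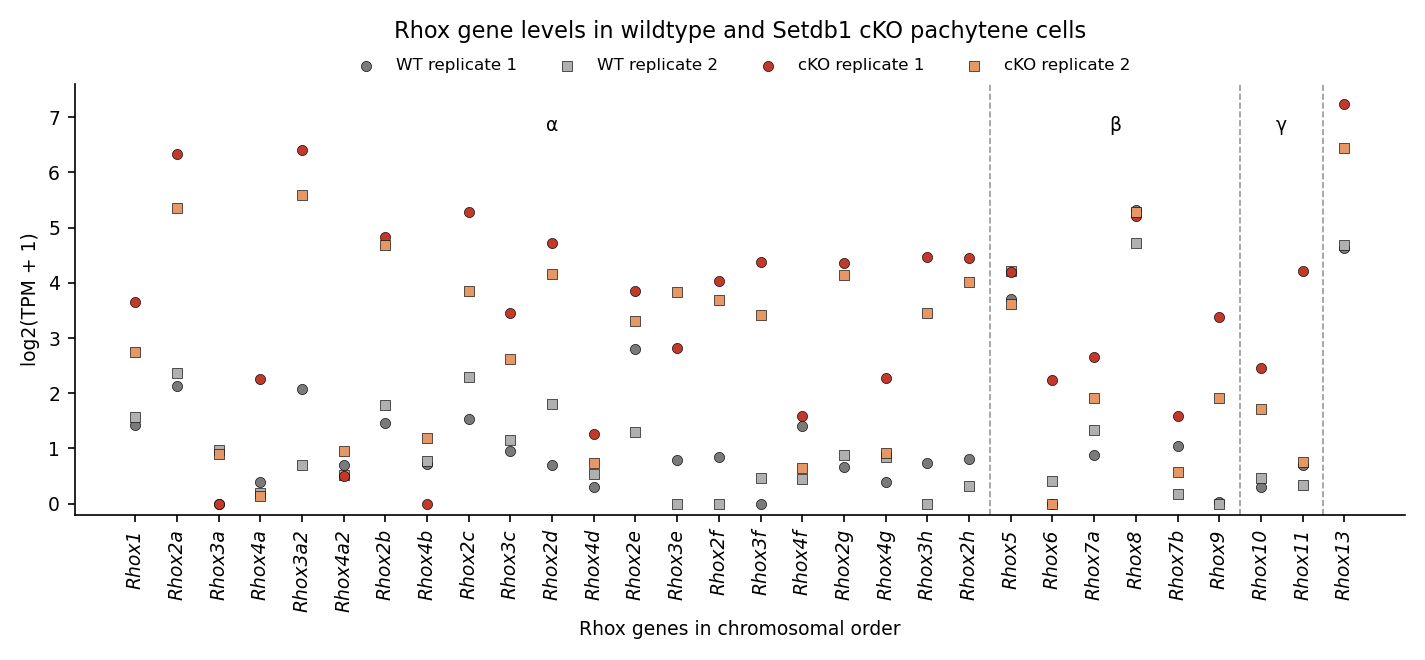
Levels of the 30 Rhox genes in chromosomal order (x axis) as log2(TPM + 1) (y axis), 1 point for each of the 2 WT samples (grey) and the 2 cKO samples (red and orange), with dashed lines between the subclusters. The Rhox2 and Rhox3 copies of the α subcluster are high in both cKO samples, apart from Rhox3a, the Rhox4 copies stay low, and Rhox5 and Rhox8 lie at like levels in all 4 samples.

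Among the Rhox genes, the α subcluster carried most of the change in summed TPM. Its 21 genes summed to 26.7 and 23.6 TPM in WT and to 404 and 243 TPM in the cKO samples, a ratio of the genotype means of 12.9. Within it 12 genes rose, all of them Rhox2 or Rhox3 copies that share reads, and both cKO samples were above both WT samples for 16. Over all X-linked genes 27.6% rose and 72.5% had both cKO samples above both WT samples. Over all genes tested these shares were 3.48% and 26.3%. The median log2 fold change of the subcluster was 2.67 (2.43 in cKO replicate 1 and 1.95 in cKO replicate 2, each against the WT mean). As no read counts were at hand, a fold is of TPM or, on the log2 scale, of TPM + 1, which understates changes of low genes.

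Rhox1, at the centromeric end of the cluster, was at 1.67 and 1.98 TPM in WT and at 11.6 and 5.69 TPM in the cKO. Its WT and cKO values did not overlap, but the difference missed the threshold (log2 change 1.70 ± 0.52 (SE), limma adjusted p = 0.238). It passed with a pseudocount of 0.1, with a filter at 1 TPM and without cKO replicate 2.

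Rhox2 encodes a testis-expressed member of the family and is present in 8 copies. Their sum rose from 15.7 and 15.5 TPM in WT to 240 and 148 TPM in the cKO samples, 12.4 times the WT mean. With the copies summed before the fit, the log2 fold change was 3.51 ± 0.31 (limma adjusted p = 0.0242). The WT samples differed by less than 1 TPM, and the lower cKO sample was still 9.44 times the WT mean.

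Among the single copies, Rhox2a was the highest in the cKO, while its WT mean was close to that of Rhox2e. It was at 3.36 and 4.14 TPM in WT and 80.1 and 40 TPM in the cKO (log2 change 3.61 ± 0.43, limma adjusted p = 0.0375). Rhox2b was at 1.75 and 2.45 TPM in WT and at 27.5 and 24.8 TPM in the cKO (log2 change 3.14 ± 0.42, adjusted p = 0.0505). The cKO samples were close to each other for Rhox2b and a factor of about 2 apart for Rhox2a, with the WT samples lower in each case. Rhox2c went from 1.88 and 3.88 TPM to 38 and 13.5 TPM (log2 change 2.67 ± 0.60, adjusted p = 0.139), and Rhox2d from 0.634 and 2.48 TPM to 25.3 and 16.8 TPM (log2 change 3.18 ± 0.55, adjusted p = 0.08). Both calls were lost without cKO replicate 1, with log2 changes then of 1.95 and 2.90.

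The 3 copies nearest the telomeric end of the α subcluster were lower still in WT. Rhox2f was at 0.785 and 0 TPM in WT and at 15.4 and 11.9 TPM in the cKO (log2 change 3.44 ± 0.52, limma adjusted p = 0.0683). Rhox2g was at 0.58 and 0.849 TPM in WT and at 19.4 and 16.6 TPM in the cKO (log2 change 3.47 ± 0.46, adjusted p = 0.0505), and Rhox2h at 0.748 and 0.249 TPM, then 20.9 and 15.1 TPM (log2 change 3.67 ± 0.49, adjusted p = 0.0505). These are also, with Rhox2d, the Rhox2 copies with the most words of their own (26.5%, 36.6%, 31.8% and 34%), so their rise is the best resolved of the family.

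Rhox2e was the exception among the Rhox2 copies. It was at 6 and 1.46 TPM in WT and at 13.5 and 8.9 TPM in the cKO, and its log2 fold change of 1.53 ± 0.62 missed the threshold (limma adjusted p = 0.353). None of its words is unique (0%), and its coding sequence is 99.7% identical to that of Rhox2a, so its level cannot be separated from those of the other copies. A pseudogene of the family, Rhox2-ps, followed the same course at 5.67 and 7.93 TPM in WT and 37.2 and 20.8 TPM in the cKO (log2 change 1.90 ± 0.42, limma adjusted p = 0.149 in the fit over all biotypes).

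Rhox3 genes are expressed in testis, and their 6 copies gave the largest ratio of the families that were above 1 TPM in every sample. Summed, they went from 5.53 and 3.18 TPM in WT to 140 and 85.9 TPM in the cKO, 26 times the WT mean (log2 change of the sum 4.41 ± 0.39, limma adjusted p = 0.0242). Each cKO sample held at least 19.7 times the WT mean. Most words of each Rhox3 copy also occur in genes other than these 6. Those genes can include Rhox3 pseudogenes, and whether the sum rests on Rhox3 reads alone was not tested.

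Rhox3a2 supplied more of the cKO sum than any other copy, at 3.21 and 0.619 TPM in WT and 83.4 and 46.9 TPM in the cKO (log2 change 4.61 ± 0.57, limma adjusted p = 0.0394). This placed it at rank 8 of the 782 X-linked genes tested, and the value was 5.30 without WT replicate 1 and 3.92 without WT replicate 2. None of its words is unique, so the split between Rhox3a2 and its copies is the quantification's and not the reads'. Rhox3f was at 0 and 0.372 TPM in WT and at 19.7 and 9.63 TPM in the cKO (log2 change 3.66 ± 0.54, adjusted p = 0.0644), and Rhox3h at 0.659 and 0 TPM, then 21.2 and 9.99 TPM (log2 change 3.60 ± 0.57, adjusted p = 0.0683). For both, the WT samples were near or at 0 and the cKO samples differed by a factor of about 2.

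Rhox3e, at 0.731 and 0 TPM in WT, reached 6.1 TPM in the first cKO replicate and 13.3 TPM in the other (log2 change 2.94 ± 0.56, limma adjusted p = 0.102). It was the only member past the threshold that was higher in cKO replicate 2. Rhox3c rose from 0.931 and 1.23 TPM to 9.97 and 5.18 TPM (log2 change 1.99 ± 0.51, adjusted p = 0.173), a call lost without cKO replicate 1, over all biotypes and with quantile normalization. Rhox3a was listed at 0 TPM in 1 sample of each genotype, with 0.957 TPM in WT replicate 2 and 0.865 TPM in cKO replicate 2 (log2 change -0.03 ± 0.44, adjusted p = 0.984). Its promoter window is 100% identical to that of Rhox3h printed above, and its own words are 1.3% of its total.

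The Rhox4 copies, known from embryonic stem cells and placenta, were at low levels throughout. None of the 6 exceeded 3.83 TPM in any sample, and their log2 fold changes ran from -0.15 to 0.98 (limma adjusted p 0.488 to 0.932; none had an unadjusted p under 0.05). Summed they were at 3.75 and 2.91 TPM in WT and at 11.5 and 4.42 TPM in the cKO (log2 change 0.93 ± 0.56, limma adjusted p = 0.545). Most of the higher value in cKO replicate 1 came from Rhox4a and Rhox4g, at 3.81 and 3.83 TPM.

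Rhox2, Rhox3 and Rhox4 genes alternate along the α subcluster, and the same stretch of chromosome held copies that rose and copies that did not pass. The ratio of the Rhox2 sum to the Rhox4 sum was 4.19 and 5.32 in WT and 20.9 and 33.3 in the cKO. The Rhox3 to Rhox4 ratio was 1.47 and 1.09 in WT and 12.2 and 19.4 in the cKO. The WT and cKO ratios did not overlap in either case. The Rhox3 and Rhox4 sums in these ratios depend on how reads shared with genes other than these copies were split. With 2 samples against 2 an exact permutation test cannot give a two-sided p under 0.33, and the difference between the families was not tested.

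**Figure D2:**
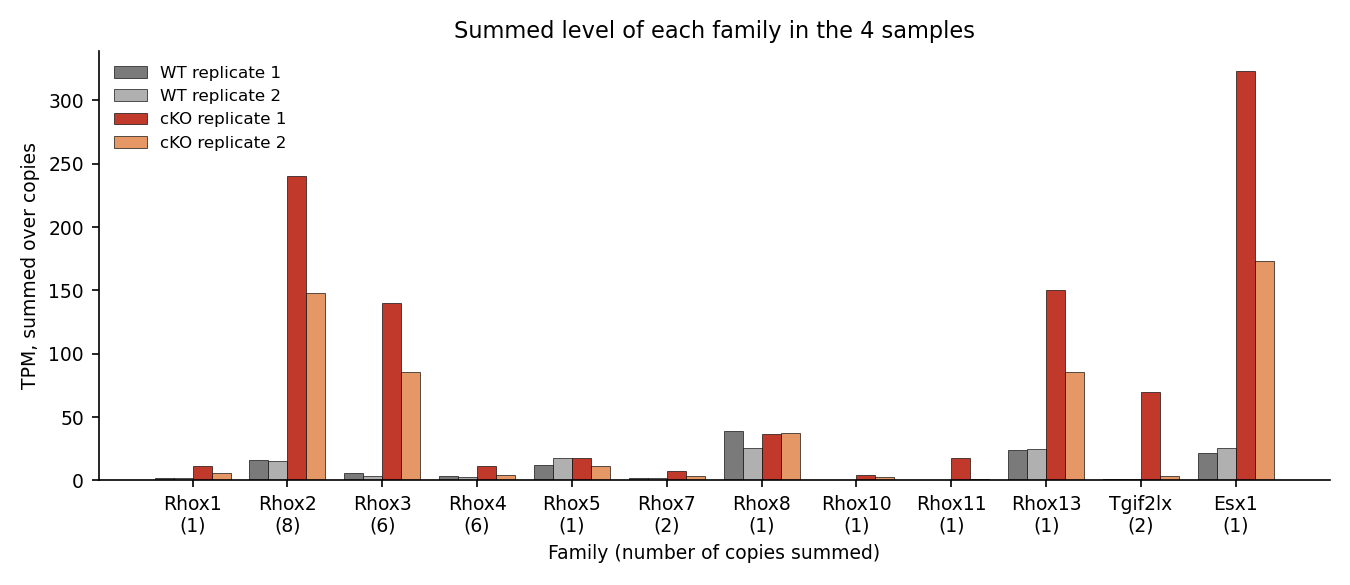
TPM summed over the copies of each family (bars, y axis) in the 2 WT samples (greys) and the 2 cKO samples (red and orange), with the number of copies under each name. The Rhox2, Rhox3, Rhox13 and Esx1 bars of both cKO samples exceed those of both WT samples, Rhox5 and Rhox8 overlap, and the Tgif2lx sum is high in cKO replicate 1 alone (70.1 against 3.58 TPM in cKO replicate 2).

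Rhox5, Rhox6, Rhox7a and Rhox9 each have a second row on an alternative scaffold, and sums here count the row on the X alone. The β subcluster summed to 52.8 and 45.1 TPM in WT and to 74 and 55 TPM in the cKO, a ratio of 1.32. Most of it came from Rhox5 and Rhox8, which are known from Sertoli cells, the somatic nurse cells of the testis. Rhox5 was at 12 and 17.6 TPM in WT and at 17.3 and 11.3 TPM in the cKO (log2 change -0.06 ± 0.40, limma adjusted p = 0.972). Rhox8 was at 38.8 and 25.5 TPM in WT and at 36.2 and 37.7 TPM in the cKO (log2 change 0.22 ± 0.31, adjusted p = 0.837). For both genes the values of the genotypes overlapped, and for Rhox8 the sign turned to -0.07 when samples were rescaled to the median autosomal gene, and to -0.07 without WT replicate 2.

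By genotype mean of the X rows, Rhox8 was the highest member in WT (32.2 TPM), followed by Rhox13 (24.2 TPM) and Esx1 (23.5 TPM). In WT replicate 1 Rhox8 was at 38.8 TPM, against 23.9 TPM for Rhox13 and 21.7 TPM for Esx1. In WT replicate 2 it was at 25.5 TPM, against 24.6 and 25.3 TPM. With its second row added, Rhox5 was at 24.1 and 35.2 TPM in WT. That is above Rhox13 and Esx1 in both samples and above Rhox8 in WT replicate 2. In the cKO Rhox8 ranked the fifth (37 TPM), behind Esx1 (248 TPM), Rhox13 (118 TPM), Rhox3a2 (65.1 TPM) and Rhox2a (60 TPM). Rhox2a was at 40 TPM against 37.7 TPM for Rhox8 in cKO replicate 2. By the X rows, Rhox5 and Rhox8 made up 48.8% and 45.9% of summed Rhox TPM in WT, and 8.23% and 12.6% in the cKO. Of the 13 genes of the Sertoli list 0 passed (0 at an unadjusted p under 0.05), with log2 fold changes from -0.81 to 0.35. In bulk RNA, fewer cells of a type and less RNA per cell cannot be told apart, and the part of Sertoli cells in the levels of Rhox5 and Rhox8 was not tested.

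Without Rhox5 and Rhox8, the Rhox genes summed to 53.3 and 50.8 TPM in WT and to 597 and 338 TPM in the cKO, a ratio of 8.98 against 5.24 with them.

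Of the other β genes, Rhox9, a gene of placenta and gonad, rose from 0.0143 and 0 TPM to 9.38 and 2.76 TPM (log2 change 2.63 ± 0.55, limma adjusted p = 0.125). It was the only β gene past the threshold. With 1 WT sample at 0 no ratio is given, and the log2 change was 1.90 without cKO replicate 1. Rhox6, its close relative in placenta, was listed at 0 in WT replicate 1 and cKO replicate 2, at 0.334 TPM in WT replicate 2 and at 3.75 TPM in cKO replicate 1. Rhox7a was at 0.837 and 1.51 TPM in WT and at 5.3 and 2.76 TPM in the cKO (log2 change 1.18 ± 0.49, adjusted p = 0.364), and Rhox7b did not exceed 2.01 TPM. Rhox5, Rhox6, Rhox7a and Rhox9 each have a second row with identical values on an alternative scaffold. With the rows added together Rhox9 passed at an adjusted p of 0.083 and Rhox5 missed the threshold (0.967).

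In the γ subcluster, Rhox10, which has a role in the founding of spermatogonial stem cells, went from 0.225 and 0.385 TPM in WT to 4.48 and 2.26 TPM in the cKO (log2 change 1.70 ± 0.43, limma adjusted p = 0.167). The WT and cKO values did not overlap, and the call was lost without cKO replicate 1, over all biotypes, with quantile normalization and without a variance trend. Rhox11 was at 0.621 and 0.266 TPM in WT, and in the cKO at 17.5 TPM in replicate 1 and 0.695 TPM in replicate 2 (log2 change 1.97 ± 1.03, adjusted p = 0.473). Its pseudogene Rhox11-ps2 was high in both cKO samples (9.93 and 5.67 TPM, against 0.88 and 0.215 TPM in WT).

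Rhox13, the most telomeric gene of the cluster and known from male germ cells, was the Rhox gene with the highest level in the cKO. It was at 23.9 and 24.6 TPM in WT and at 150 and 85.8 TPM in the cKO, 4.87 times as high (log2 change 2.18 ± 0.33, limma adjusted p = 0.0666). All its words are unique, so no other copy shares its reads. Its share of the summed Rhox TPM was 22.9% and 26.2% in WT and 23.1% and 22.2% in the cKO, while that of the Rhox2 copies went from 15.1% and 16.5% to 37% and 38.1%, and that of the Rhox3 copies from 5.31% and 3.38% to 21.6% and 22.2%.

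Outside the cluster, Esx1 gave the smallest p of all members. It was at 21.7 and 25.3 TPM in WT and at 323 and 173 TPM in the cKO, 10.5 times as high (log2 change 3.28 ± 0.34, limma adjusted p = 0.0315). Both WT samples were close together, and the lower cKO sample held 7.36 times the WT mean. Of the X-linked genes tested, 55 had a larger log2 fold change.

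The Tgif2lx genes were far higher in cKO replicate 1 than in any other sample. Tgif2lx2 was at 0 and 0.391 TPM in WT and at 38.5 and 3.58 TPM in the cKO (log2 change 3.51 ± 0.97, limma adjusted p = 0.197). Without cKO replicate 1 it still passed, with a log2 change of 1.96, and the call was lost over all biotypes, with quantile normalization and without a variance trend. Tgif2lx1 was at 1.07 and 0.391 TPM in WT, and in the cKO at 31.5 TPM in replicate 1 and 0 TPM in replicate 2 (log2 change 1.75 ± 1.44, adjusted p = 0.676), and without cKO replicate 1 its sign turned to -0.76. The pair shares 96.9% of its words, and summed it did not pass (log2 change 3.23 ± 1.17, adjusted p = 0.307).

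**Figure D3:**
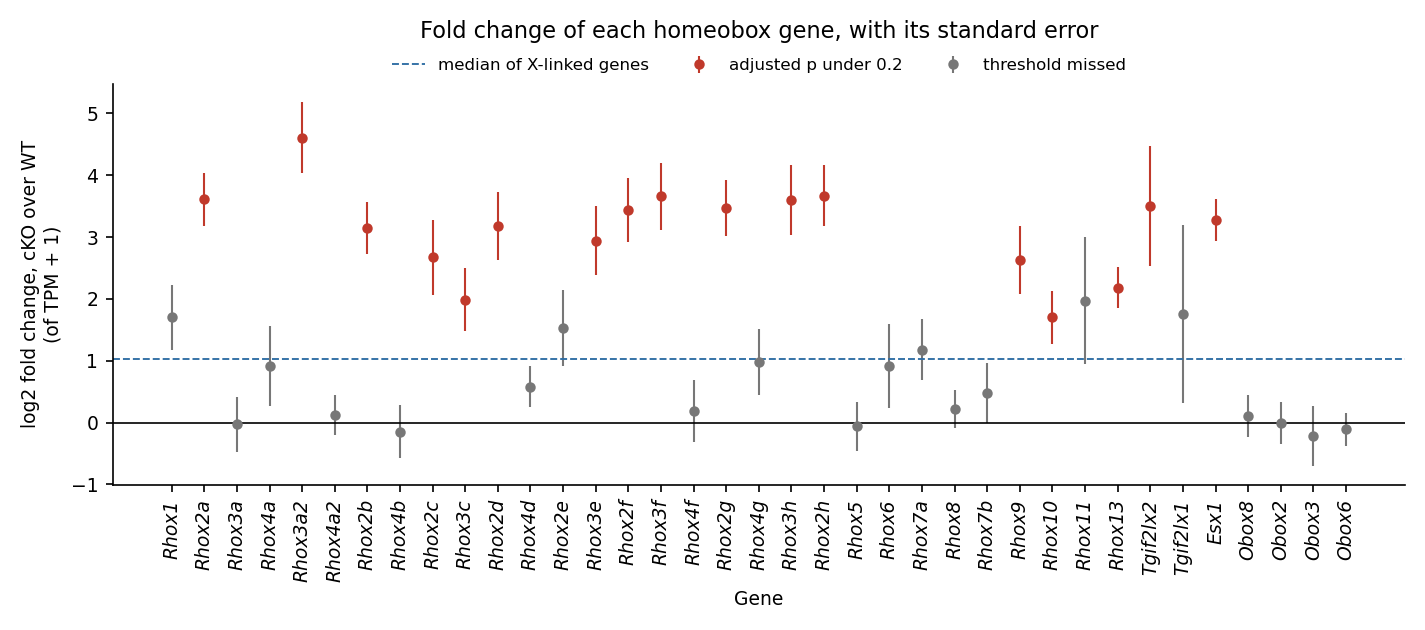
Log2 fold change of TPM + 1, cKO over WT (y axis), for each of the 37 genes (x axis; Rhox genes in chromosomal order, then the other X-linked genes, then the Obox genes), with bars for the standard error from limma. Red points have an adjusted p under 0.2 and grey points do not; the dashed line at 1.03 is the median of the X-linked genes tested.

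The Obox genes were low in all 4 samples. None of the 4 exceeded 4.3 TPM in any sample, their log2 fold changes ran from -0.22 to 0.10 (limma adjusted p 0.911 to 0.998; none had an unadjusted p under 0.05), and WT and cKO values overlapped for each. Of their pseudogenes on chromosome 7, 0 of 9 rose, against 4 of the 6 Rhox pseudogenes on the X (fit over all biotypes). That fit called 874 genes in all, in either direction, and its share for the X was not computed. The Obox set is autosomal and the Rhox set X-linked, so family and chromosome cannot be told apart here.

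The cKO samples differed from each other for many members, and cKO replicate 1 was usually the higher. It held 1.63 times the Rhox2 sum of cKO replicate 2, 1.64 times the Rhox3 sum, 1.75 times the Rhox13 level and 1.87 times the Esx1 level. For Rhox11 the ratio was 25.2 and for the Tgif2lx sum 19.6. Between the same samples the summed Leydig genes differed by 6.01 times and the summed spermatid genes by 5.46 times. Acr, at 92.8 and 141 TPM in WT and 132 and 155 TPM in the cKO, made up most of the spermatid sum outside cKO replicate 1. Without it, an alternative chosen after its values were seen, the other 11 genes summed to 15.5 and 21.2 TPM in WT and to 1048 and 60.7 TPM in the cKO, so that the cKO samples differed by 17.3 times and cKO replicate 2 held 3.31 times the WT mean. Of the 12 spermatid genes, 3 rose in the cKO (Spaca3, Spaca4 and Odf1), against 3.48% of all genes tested. Both cKO samples lay above both WT samples for 9 of the 12, against 26.3% of all genes tested. None was at 0 in cKO replicate 1, Spaca4 and Tnp1 were at 0 in WT replicate 1, and Tnp1 was at 0 in cKO replicate 2. The part of spermatid or Leydig RNA in the levels of Rhox11, Tgif2lx and the other members was not tested.

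**Figure D4:**
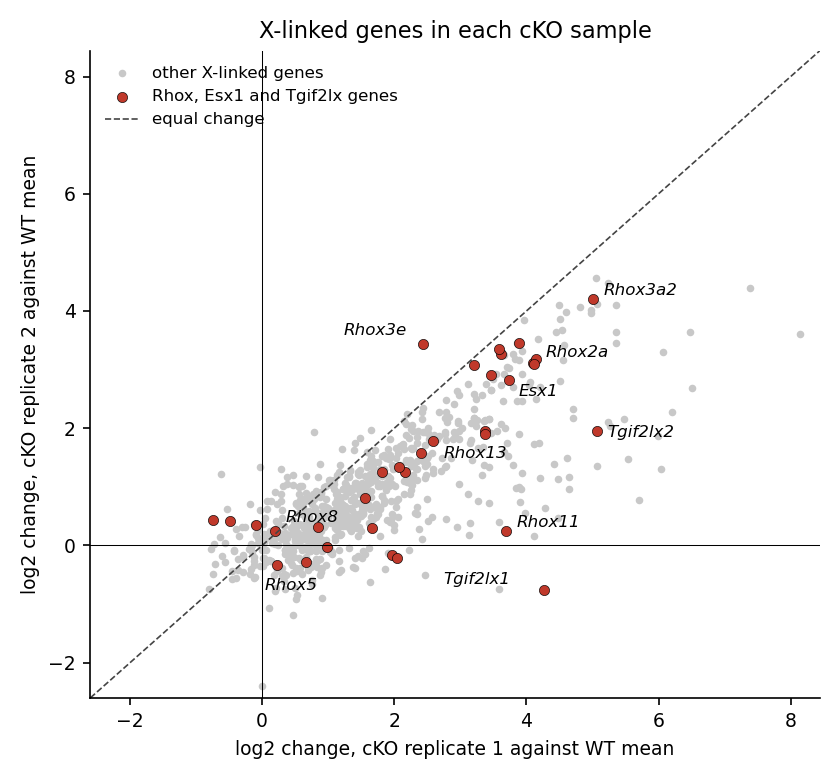
Log2 change of TPM + 1 of each X-linked gene in cKO replicate 1 (x axis) and in cKO replicate 2 (y axis), both against the mean of the WT samples, for the 33 X-linked members (red) and the other 749 genes tested (grey). The WT mean is shared by both axes. Most members lie with the other genes below the line of equal change, with Rhox3a2, Rhox2a and Esx1 high on both axes and Rhox11 and Tgif2lx1 near or below 0 in cKO replicate 2.

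**Figure D5:**
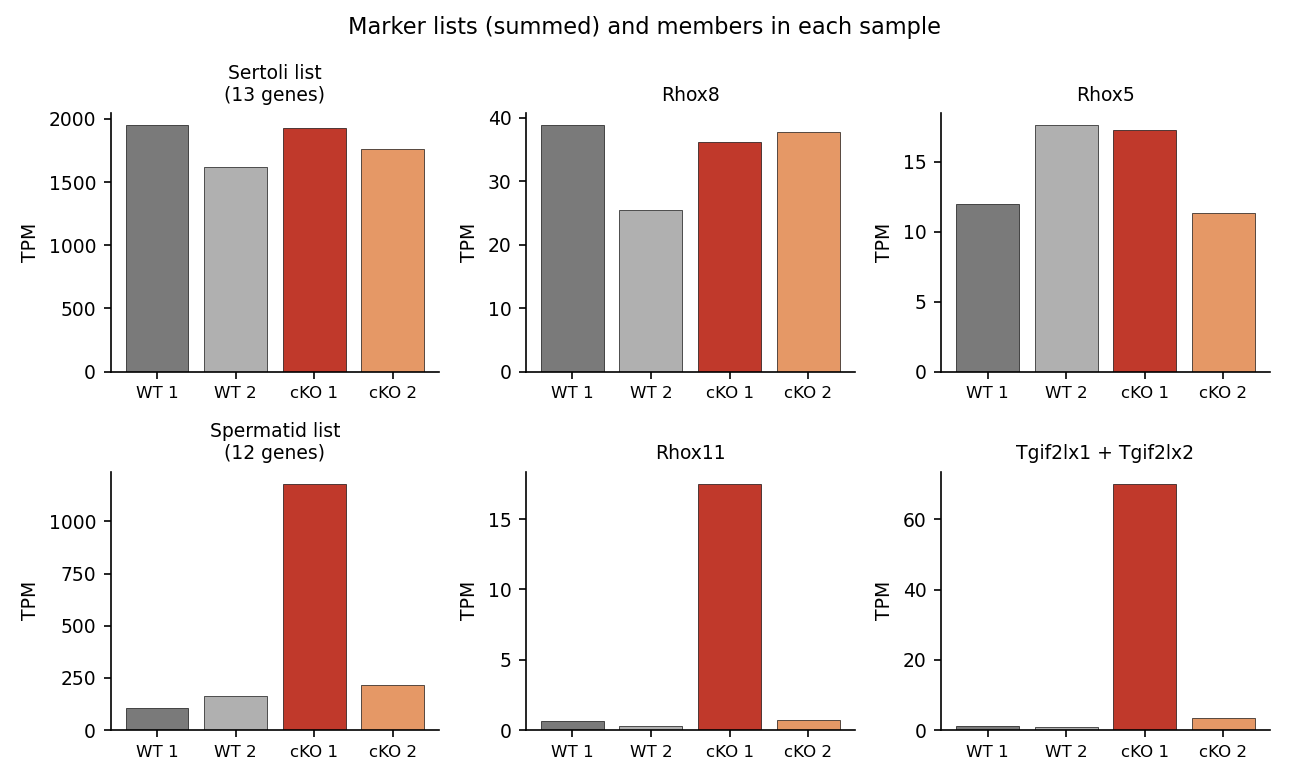
TPM (bars, y axes, each panel with its own scale from 0) in the 4 samples for the Sertoli list and the spermatid list, both summed, and for Rhox8, Rhox5, Rhox11 and the sum of the Tgif2lx genes. The Sertoli sum, Rhox8 and Rhox5 overlap between genotypes, and the spermatid sum, Rhox11 and the Tgif2lx sum are far higher in cKO replicate 1 than in any other sample.

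The members were also set beside X-linked genes of like WT level, since low genes make up most of them. Among genes under 1 TPM in WT, 9 of 19 members and 54 of 226 other X-linked genes rose. Between 1 and 5 TPM, 6 of 10 members and 52 of 222 others rose, and between 5 and 50 TPM 2 of 4 and 88 of 272. The median cKO level of the members between 1 and 5 TPM in WT was 16.1 TPM, against 6.24 TPM for the others. Since copies share reads, these counts hold fewer independent genes than they name. Of the 8 X-linked members with at least 90% unique words 4 rose (Rhox9, Rhox10, Rhox13 and Esx1), with a median log2 fold change of 1.84. The 8 include Rhox5 and Rhox9, whose second rows on an alternative scaffold were not counted as other genes.

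The cluster lies at chrX:37213804-38129967 (GRCm38), and its neighbours lay mostly on the same side. Of the 27 protein-coding genes that start inside this span or within 1 Mb of it, 5 rose and none fell (14 and 0 with an unadjusted p under 0.05), with a median log2 fold change of 1.05. The 5 were 18.5% of the neighbours, against 27.6% of all X-linked genes. The nearest gene on the centromeric side, Gm9, rose from 0 and 0.965 TPM to 56.1 and 23.2 TPM (log2 change 4.73 ± 0.61, limma adjusted p = 0.0479). The others were Ube2a, Gm6268 and Akap14 on the same side and Lamp2 on the telomeric side. Both cKO samples lay above both WT samples for 23 of the 27 (85.2%), against 72.5% of all X-linked genes, and whether the neighbours differ from the rest of the X was not tested.

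Homeobox genes outside the members gave no calls among those given here. Of other X-linked homeobox genes, Hdx, Cdx4 and Pou3f4 did not exceed 1.1 TPM in any sample, and their log2 fold changes of 0.45, -0.10 and -0.10 missed the threshold (limma adjusted p = 0.617, 0.926 and 0.922). Of 15 autosomal homeobox genes of gonad or germ line, 0 passed (1 was higher at an unadjusted p under 0.05). That gene was Lhx8, an oocyte factor, at 0.557 and 0.777 TPM in WT and 2.83 and 7.57 TPM in the cKO (1.78 ± 0.53, limma adjusted p = 0.225). Of 11 TALE-class genes 0 passed (1 was lower at an unadjusted p under 0.05), namely Pbx4, at 303 and 315 TPM in WT and 93.5 and 191 TPM in the cKO (log2 change -1.20 ± 0.36, adjusted p = 0.225). Of 15 genes for repressors of germline genes, Setdb1 among them, 0 passed (2 had an unadjusted p under 0.05 in the higher direction and 3 in the lower).

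The promoter windows showed what the families share beyond their names. The windows of 7 Rhox2 copies held 5 to 9 CG dinucleotides in 300 bases, those of 6 Rhox3 copies 2 to 3 and those of 5 Rhox4 copies 10 to 12, against a median of 7 (quartiles 3 and 20) over 32851 RefSeq promoters. Esx1 held 24, Rhox13 and Rhox5 held 5 each, and Rhox1 held 0. These Rhox2 windows were thus close to the median of all promoters, the Rhox3 windows below it, and the Rhox4 windows above it.

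The letters CCAAT were searched on both strands. They occurred in 15 of the 26 member promoters, with 2 matches in each of the 7 Rhox2 windows and none in the 6 Rhox3 windows, against 37.4% of all promoters. The E-box CACGTG occurred in 5 (Rhox4a2, Rhox4b, Rhox4f, Rhox4g and Esx1), against 7.15% of all promoters, and TATAAA in 1 (Obox3), against 13.6%. The Rhox4a window starts inside the stretch that holds the E-box in the other Rhox4 windows, so a match there would be cut off. GCGGGAAA and TGACGTCA occurred in no member promoter and in 1.07% and 1.79% of all promoters. Some windows of a family were near copies. That of Rhox2a was 99.7% identical to those of Rhox2c and Rhox2e and 85.1% to that of Rhox2g, and that of Rhox3a2 was 96.1% identical to those of Rhox3e and Rhox3f. Others were less alike. Those of Rhox2b and Rhox2g were 74% identical and those of Rhox4a and Rhox4g 65.4%. Those of Rhox3a2 and Rhox3h, both printed above, were 48.1% identical. Windows of different families gave like values, for example 49.5% for Rhox1 and Rhox3a. Each window is placed by its RefSeq start, so a shifted start lowers the identity, and divergence of the copies was not tested. Matches in near copies are not independent of each other.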

How the data were processed

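RNA-seq of sorted pachytene cells was analysed for 2 WT and 2 cKO samples. The authors made cDNA with Smart-seq2, quantified single-end reads with kallisto against the GRCm38 mouse transcriptome, and summed transcripts to genes with sleuth. The deposited signal values are TPM per gene, made by the authors with kallisto and sleuth, and are called a signal because the columns sum to 1109725, 942186, 996166 and 946174 (WT replicates 1 and 2, cKO replicates 1 and 2). Without counts the depth, and the error of counting, are unknown. The deposited p-values, q-values, fold change estimates and genotype means were not used. The 19462 protein-coding genes that averaged more than 0.1 TPM in either genotype were compared on log2(TPM + 1) with limma 3.58.1 (eBayes with a trend; R 4.3.3), Benjamini-Hochberg adjusted, threshold 0.2 as in the methods for q. The fit was tested on simulated data. Words of 31 bases came from GENCODE transcripts of GRCm38, promoters from RefSeq (GRCm38.p6). Protein sequences were not used here.

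The members, lists and tests were chosen with earlier results of these data known. Printed in full are Setdb1, members past the threshold or with a mean of at least 5 TPM in a genotype, Rhox5 and Rhox8, and up to 4 genes of each list with the smallest p; marker lists are given by counts and sums. Rhox3a, Rhox4a, Rhox4g, Rhox6, Rhox7a, Gm9, Acr and the pseudogenes were named after their values were seen. Alternatives covered pseudocounts, filters, biotypes, scaling (to the median autosomal gene, by quantiles, by TMM factors computed on TPM), the variance trend, a replicate block, summed copies, each sample left out and stricter thresholds. One gene of the lists is not reported here.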

Additional observations from a re-analysis of the deposited data

How the results depend on the processing

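The count of members past the threshold was 17 as reported. It was 14 to 18 under 2 other pseudocounts, 2 other filters, all biotypes, 3 scalings and no variance trend. It was 11 at an adjusted p under 0.1 and 3 under 0.05, and 6 of 18 families when near-identical copies were summed, a fit with fewer features. Leaving out 1 sample gave 0 to 24 members: 0 without either WT sample, where no gene of the genome passed. Chosen after seeing the data, the rescaled fit without cKO replicate 1 also gave 0 members and 0 genes, and adding the patch copies gave 17. The cause of these losses was not tested.

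The median log2 fold change of the α subcluster was 3.02 with a pseudocount of 0.1, 3.04 with the filter at 1 TPM, 1.95 to 2.54 with 1 sample left out and 1.86 in the rescaled fit without cKO replicate 1. Rescaling to the median autosomal gene shifted the median of all genes by -0.21 and quantile normalization by -0.19. The member median was then 1.52 and 1.41, Rhox5 stood at -0.34 and -0.30, and Rhox8 at -0.07 and 0.10. With 1 sample left out the sign turned for Rhox5 (-0.34 to 0.23, above 0 without WT replicate 2 or cKO replicate 2), Rhox8 (-0.07 to 0.52, below 0 without WT replicate 2) and Tgif2lx1 (-0.76 to 4.26, below 0 without cKO replicate 1, and -0.77 with rescaling added).

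Replicate numbers do not pair the samples by the labels, and deviations of same-numbered samples correlated at 0.0252. With the replicate number as a block 17 members passed, the same 17 genes, and 1409 genes in all, against 895 without it.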
